A study of Mus musculus with 6 samples.

Results

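The erythroid miRNAs miR-451a, miR-486 and miR-144 were measured in epididymal white adipose tissue (WAT) of wild type (Wt) and angiotensinogen transgenic (Agt Tg) mice. Their members were chosen by name, as every arm of hsa-mir-451a, hsa-mir-486 and hsa-mir-144 in the table of small RNA values. This gave 5 rows of 1983, namely miR-451a, miR-486-5p, miR-486-3p, miR-144-5p and miR-144-3p. All 5 were above the floor of the table in 6 of 6 libraries, whereas 329 of the 1983 rows were above it in at least 3 libraries. The libraries came from 3 Wt and 3 Agt Tg males of the C57BL6/J strain. In Agt Tg mice the angiotensinogen gene is overexpressed from the aP2 promoter, which is active in adipocytes and also in macrophages, and Wt mice carry no transgene. The diet of both genotypes is chow in the sample labels and low fat in the methods, and no other treatment is named. The age of the mice is not given in the sources used here.

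Red cell precursors make these miRNAs in large amounts. miR-144 and miR-451a are cut from a shared primary transcript that the erythroid factor GATA-1 switches on, and miR-451a is known for a hairpin that is sliced by Ago2 instead of Dicer. miR-486 lies in an intron of Ank1, the gene of the red cell membrane protein ankyrin, and is made in skeletal and cardiac muscle as well as in erythroid cells. Mature red cells have no nucleus but keep these miRNAs, so that a piece of tissue with blood in its vessels carries them. The values below describe whole tissue, in which fewer cells of a type and less RNA per cell cannot be told apart.

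In the mouse genome (GRCm38), Mir144 lies on chromosome 11 from 78073005 to 78073070 and Mir451a from 78073170 to 78073241, both on the plus strand and 99 bases apart, outside any other annotated gene on that strand. Mir451b overlaps Mir451a base for base on the minus strand. Mir486 lies on chromosome 8 from 23142555 to 23142682 on the plus strand, within Ank1 (22974844 to 23150497), and was intronic in all 15 annotated Ank1 transcripts that span it. Mir3107 and Gm15816 overlap it on the minus strand, and the strand from which the reads of miR-486 came was not tested. RefSeq sequences of this assembly were matched for miR-144, for which both arms are listed in the table. The sequences at hand had no entry for Mir451a or Mir486, so that none is shown for miR-451a or miR-486. The arms of miR-144 were counted apart and gave unequal reads. Its hairpin is shown with the mature arms in capitals (bases 6 to 28 and 43 to 62), written 5′ to 3′.
Mir144 hairpin: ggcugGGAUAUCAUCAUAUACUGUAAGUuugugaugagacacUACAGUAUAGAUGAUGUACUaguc
The mature miRNAs follow with the seed (bases 2 to 8), through which a miRNA mainly pairs with its targets, in capitals. miR-101a-3p is shown beside them because its seed is the nearest to that of miR-144-3p.
miR-144-5p: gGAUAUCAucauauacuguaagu
miR-144-3p: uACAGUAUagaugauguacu
miR-101a-3p: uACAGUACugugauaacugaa
Counted from 1 at the 5′ end, miR-144-3p and miR-101a-3p shared the first 7 bases and first differed by U8C, with the base of miR-144-3p given first. Among 1738 mature mouse sequences in the RefSeq table, miR-101a-3p was the only other with the same bases 2 to 7 as miR-144-3p, and no other sequence shared bases 2 to 7 of miR-144-5p. This set had no entry for Mir451a or Mir486 and is thus not complete.

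The deposited values were log2 of reads per 10000000 of a library's total, with 10 reads per 10000000 as the lowest value that occurs, called the floor here. Library totals recovered from the values were between 6387766 and 10562634 reads, and reads on listed miRNAs made up 51.8% to 57.2% of them. The column headers of the libraries shared a prefix that has the form of a flow cell and lane, which the headers do not name as such. Wt replicate 2 stood apart from the rest by miRNAs of epididymis and epithelium: miR-375 was at 15.10 (log2) there and between 5.34 and 6.23 in the other libraries, and miR-34c-5p at 16.32 compared with 9.54 to 10.36. The genotype differences of the erythroid miRNAs, of their ratios and of the lists set beside them are therefore given with and without that library. The adipose list (9 miRNAs, such as miR-143-3p and miR-378a-3p) summed to between 632462 and 884471 reads per 10000000 in the 6 libraries, with miR-193b-3p alone at the floor throughout.

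miR-486-5p was by far the most abundant of the 5. Its log2 values were 17.34, 15.55 and 17.38 in Wt replicates 1, 2 and 3, and 17.62, 16.66 and 16.42 in Agt Tg replicates 1, 2 and 3. Wt replicate 2 was the lowest library and Agt Tg replicate 1 the highest, and the genotypes overlapped. These values stood for 37577 to 209241 reads, and the miRNA ranked between place 8 and place 24 in a library. It took 2.30% ± 1.24 (SD, n = 3) of the reads on listed miRNAs in Wt mice and 2.46% ± 1.16 (SD, n = 3) for Agt Tg mice. Between 93.5% and 97.0% of the reads on the 5 erythroid rows were miR-486-5p.

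The other arm, miR-486-3p, was the least abundant of the 5. Its log2 values were 7.42, 5.71 and 6.83 in Wt replicates 1, 2 and 3, and 7.58, 6.76 and 6.88 in Agt Tg replicates 1, 2 and 3. Wt replicate 2 was again lowest and Agt Tg replicate 1 again highest. Wt replicate 2 had 41 reads of it (95% exact Poisson interval 29.4 to 55.6, which covers counting error only), and Agt Tg replicate 1 had 199 (172 to 229).

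miR-451a, which in erythroid cells restrains Ywhaz and protects red cells from oxidants, had log2 values of 12.49, 11.30 and 12.47 in Wt replicates 1, 2 and 3. In Agt Tg replicates 1, 2 and 3 it had 12.38, 12.68 and 12.08. Wt replicate 2 was the lowest library, while the other 5 lay within 0.60 of each other on the log2 scale, and the 2 other Wt libraries lay inside the Agt Tg range. The reads ran from 1976 to 5579, and the rank in a library from place 55 to place 85. Its share of the reads on listed miRNAs was 0.0837% ± 0.0330 (SD, n = 3) in Wt tissue and 0.102% ± 0.024 (SD, n = 3) for Agt Tg mice.

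miR-144-5p had log2 values of 9.09, 8.50 and 8.42 in Wt replicates 1, 2 and 3 and of 9.09, 8.64 and 9.47 in Agt Tg replicates 1, 2 and 3. miR-144-3p, the arm with the seed close to that of miR-101, had 7.74, 6.91 and 7.25 in the Wt libraries and 7.89, 7.26 and 8.33 in the Agt Tg libraries. For both arms Agt Tg replicate 3 was the highest library, and for both the genotypes overlapped. Wt replicate 2 was lowest for miR-144-3p and Wt replicate 3 for miR-144-5p. Reads were between 255 and 749 for miR-144-5p and between 94 and 339 for miR-144-3p.

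**Figure D1:**
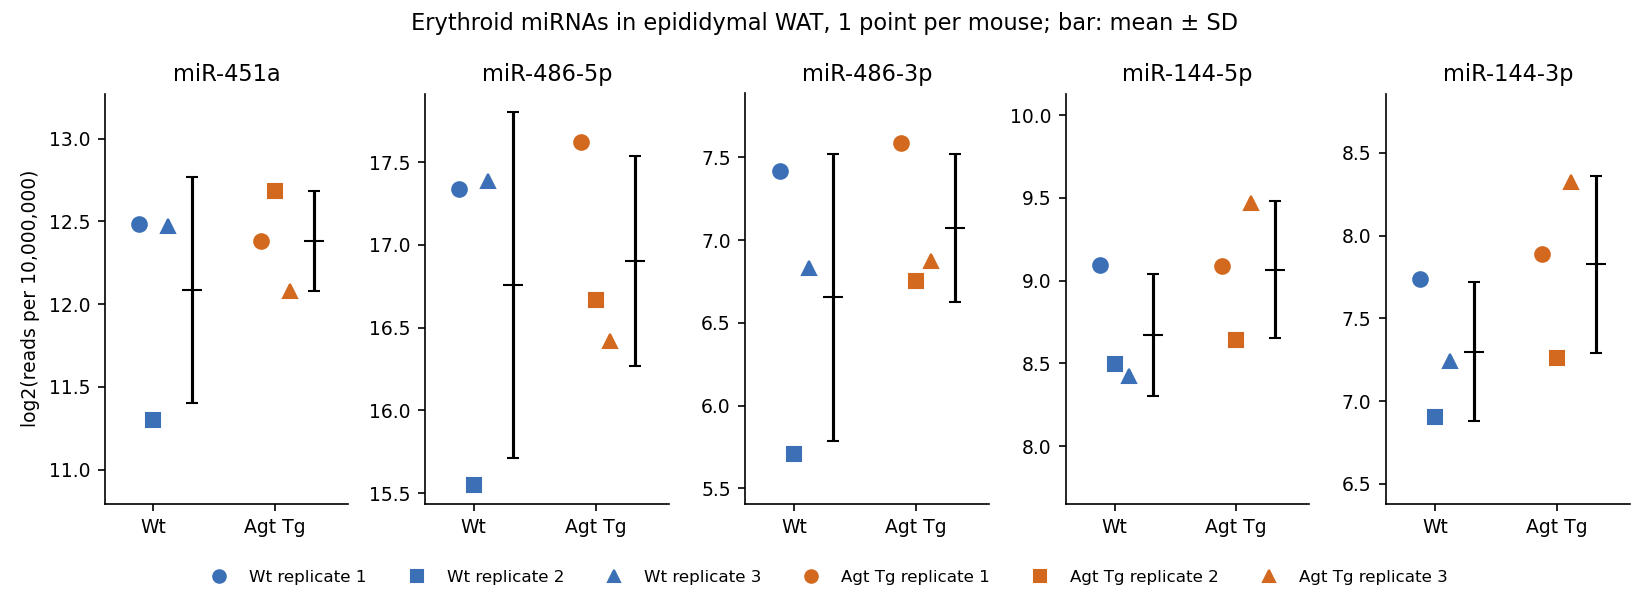
The plot gives log2(reads per 10,000,000) of the 5 erythroid miRNAs in each mouse, with genotype on the x axis, marker shape for the replicate, and the mean ± SD (n = 3) as black bars; the 5 panels have axes of the same length but different position. Wt replicate 2 (blue square) is the lowest point in 4 of the 5 panels, and the genotypes overlap in all 5.

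The order of the levels was miR-486-5p, miR-451a, miR-144-5p, miR-144-3p and miR-486-3p, and it held in 6 of 6 libraries for each pair of neighbours. The ranges over libraries of miR-144-3p (6.91 to 8.33) and miR-486-3p (5.71 to 7.58) overlapped, so that this pair was ordered within each library but not between libraries. The closest of the other pairs was that of the miR-144 arms, where the lowest miR-144-5p value was 8.42 and the highest miR-144-3p value 8.33. Levels of different miRNAs are given as reads, and the yield of a library preparation can differ between sequences.

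The comparison of genotypes asked whether overexpression of angiotensinogen in adipose tissue was accompanied by another level of these miRNAs. None of the 5 differed between genotypes beyond the spread between mice. The mean log2 values of Wt and Agt Tg mice were 16.76 ± 1.05 and 16.90 ± 0.64 for miR-486-5p, 12.09 ± 0.68 and 12.38 ± 0.30 for miR-451a, and 6.65 ± 0.87 and 7.07 ± 0.45 for miR-486-3p (SD, n = 3 each). For miR-144-5p they were 8.67 ± 0.37 and 9.07 ± 0.41, and for miR-144-3p 7.30 ± 0.42 and 7.83 ± 0.54 (SD, n = 3 each). The log2 fold changes of Agt Tg against Wt were 0.53 for miR-144-3p (standard error 0.38), 0.42 for miR-486-3p (0.49), 0.40 for miR-144-5p (0.32), 0.29 for miR-451a (0.36) and 0.15 for miR-486-5p (0.55). The adjusted p of limma lay between 0.587 for miR-144-3p and 0.893 for miR-486-5p, with Benjamini-Hochberg adjustment over the 329 rows tested. Of the 5 members, 0 passed an unadjusted p of at most 0.05 with a change of at least 1 (log2) in either direction, where 16 of all 329 rows (4.86%) did. At an unadjusted p of at most 0.05 alone it was 0 of 5, compared with 30 of 329 rows (9.12%) by limma, and limma-voom likewise had 0 of 5, with 32 of 329 rows at a p under 0.05. At an adjusted p under 0.05 there were 0 of 5 members and 0 of 329 rows (0%) by either method. The genotypes did not overlap in 0 of 5 members, compared with 58 of 329 rows (17.6%).

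The 95% intervals show what 3 mice against 3 could resolve. For miR-451a the interval of the log2 fold change ran from −0.56 to 1.15, which is from 0.679-fold to 2.21-fold. For miR-486-5p it ran from −1.14 to 1.43, or from 0.454-fold to 2.70-fold. The intervals of miR-144-5p (−0.36 to 1.15), miR-144-3p (−0.36 to 1.42) and miR-486-3p (−0.73 to 1.57) likewise held 0. A doubling was thus inside the interval of each of the 5, and a halving inside that of miR-486-5p alone.

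All 5 fold changes were positive, while 32.5% of the 329 rows had a positive one and the median of all rows was −0.19. Scaling by TMM (trimmed mean of M values) moved that median by 0.13, to −0.06, and left 5 of 5 positive. Without Wt replicate 2, however, 2 of the 5 were positive, where 34.3% of all rows were. The values were then −0.10 for miR-451a (95% interval −0.62 to 0.42), −0.46 for miR-486-5p (−1.32 to 0.41) and −0.054 for miR-486-3p (−0.95 to 0.84), compared with 0.31 for miR-144-5p (−0.52 to 1.14) and 0.33 for miR-144-3p (−0.59 to 1.26). The sign of the genotype difference thus turned with 1 library for miR-451a and both arms of miR-486. For miR-486-5p it also turned without Agt Tg replicate 1, to −0.21.

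**Figure D2:**
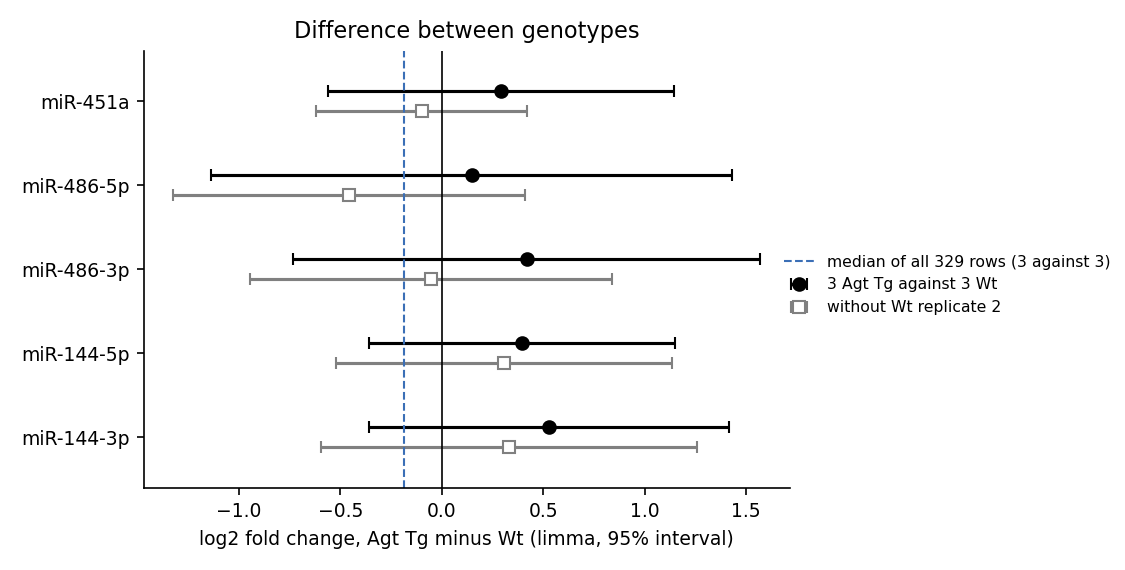
The plot gives the log2 fold change of Agt Tg against Wt for each erythroid miRNA with its 95% interval from limma, with all 6 libraries (filled) and without Wt replicate 2 (open), and the median of all 329 rows as a dashed line at −0.19. Every interval crosses 0, and the open symbols of miR-451a, miR-486-5p and miR-486-3p lie below 0.

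Wt replicate 2 was the lowest library for 4 of the 5 members, and for 53 of 270 rows (19.6%) among those that exceeded the floor in every library. It lay 1.54 below the mean of the other libraries for miR-486-5p, 1.38 for miR-486-3p, 1.12 for miR-451a, 0.79 for miR-144-3p and 0.45 for miR-144-5p on the log2 scale. The list of epididymis and epithelium (10 miRNAs) summed to 138567 reads per 10000000 in that library and to between 1036 and 1726 in the others. Its part in the low erythroid values was not tested.

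The members varied between mice to different degrees. The SD within a genotype, pooled over both, was 0.87 for miR-486-5p, 0.69 for miR-486-3p, 0.53 for miR-451a, 0.48 for miR-144-3p and 0.39 for miR-144-5p on the log2 scale. The median of this SD over the 329 rows was 0.41. Of all rows, 89.1% had a smaller SD than miR-486-5p, 83.6% than miR-486-3p, 67.2% than miR-451a, 62.0% than miR-144-3p and 47.7% than miR-144-5p. From the lowest to the highest library miR-486-5p spanned 4.21-fold, miR-451a 2.61-fold and miR-144-5p 2.07-fold.

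A ratio of 2 miRNAs in a library does not depend on how libraries are scaled against each other. The arms of miR-144 kept the narrowest ratio. miR-144-5p had between 2.21 and 3.01 times the reads of miR-144-3p, with a log2 ratio of 1.37 ± 0.21 (SD, n = 3) in Wt tissue and 1.24 ± 0.12 (SD, n = 3) for Agt Tg mice. For miR-486 the arms were far more unequal, and miR-486-5p had between 747 and 1499 times the reads of miR-486-3p. The log2 ratio was 10.10 ± 0.39 (SD, n = 3) in Wt tissue and 9.83 ± 0.26 (SD, n = 3) for Agt Tg mice.

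miR-486-5p had between 15.8 and 37.8 times the reads of miR-451a, with log2 ratios of 4.85, 4.25 and 4.91 in Wt replicates 1, 2 and 3 and of 5.24, 3.98 and 4.34 in Agt Tg replicates 1, 2 and 3. Agt Tg mice held both the highest and the lowest of these values. miR-451a had between 6.09 and 16.6 times the reads of miR-144-5p, although both come from neighbouring hairpins of a shared transcript. The log2 ratio of this pair was 3.39, 2.80 and 4.05 in Wt replicates 1, 2 and 3 and 3.29, 4.04 and 2.61 in Agt Tg replicates 1, 2 and 3. Its spread over the 6 libraries (SD 0.60) was wider than that between the miR-144 arms (SD 0.17). The ratio of miR-486-5p to miR-144-5p ran from 124 to 498.

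The ratio of miR-451a to miR-23a-3p is used in plasma as a sign of lysed red cells, since red cells hold much miR-451a and little miR-23a. In these tissue libraries miR-451a had between 0.238 and 0.419 times the reads of miR-23a-3p. The log2 ratio was −1.65 ± 0.38 (SD, n = 3) in Wt tissue and −1.40 ± 0.20 (SD, n = 3) for Agt Tg mice. miR-23a is made by many tissues, so that the limits used for plasma do not carry over. The 6 ratios were compared between genotypes with two-sided exact permutation tests, which cannot give a p under 0.1 with 3 mice against 3. Their exact p-values lay between 0.5 and 0.9, and between 0.84 and 0.9 with Benjamini-Hochberg adjustment. The genotype differences of the log2 ratios ran from −0.27 for the miR-486 arms to 0.24 for miR-451a over miR-23a-3p. Without Wt replicate 2 each of the 6 kept its sign. The difference was then −0.36 instead of −0.15 for miR-486-5p over miR-451a, −0.41 instead of −0.10 for miR-451a over miR-144-5p and −0.76 instead of −0.25 for miR-486-5p over miR-144-5p. It was −0.40 instead of −0.27 for the miR-486 arms, −0.025 instead of −0.13 for the miR-144 arms and 0.029 instead of 0.24 for miR-451a over miR-23a-3p.

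**Figure D3:**
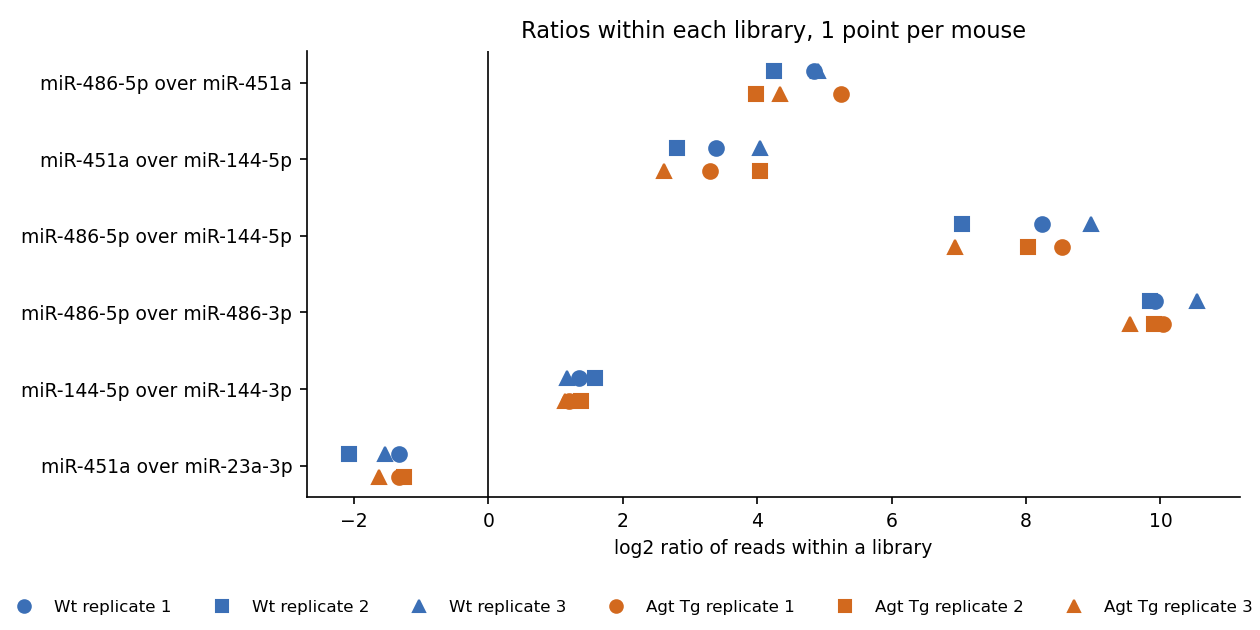
The plot gives the log2 ratio of reads of 6 pairs of miRNAs within each library, with Wt mice in the upper and Agt Tg mice in the lower line of each pair. Both genotypes overlap in every pair, and the ratio of the miR-144 arms spans the shortest range, from 2.21 to 3.01 on the linear scale.

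Across the 6 libraries, the 2 pairs of arms of the same miRNA had the highest values of r among the 10 pairs of members. For miR-144-5p and miR-144-3p Pearson's r was 0.96 (exact permutation p = 0.0111) and Spearman's rho 0.89 (exact permutation p = 0.0333), and r was 0.98 without the 2 libraries farthest from the median of miR-144-5p, Wt replicate 3 and Agt Tg replicate 3. With Benjamini-Hochberg adjustment over the 10 pairs of members the exact permutation p-values were 0.0833 and 0.333. For miR-486-5p and miR-486-3p r was 0.91 (exact permutation p = 0.0167, adjusted 0.0833) and rho 0.71 (exact permutation p = 0.136, adjusted 0.454). Without the 2 farthest from the median of miR-486-5p, Wt replicate 2 and Agt Tg replicate 1, r fell to 0.51, so that this relation rested in part on those libraries. None of the 10 pairs passed the adjustment.

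miR-451a and miR-486-5p had r = 0.81 (exact permutation p = 0.0583, adjusted 0.194) but rho = 0.43 (exact permutation p = 0.419, adjusted 0.839). Without the 2 libraries farthest from the median of miR-451a, Wt replicate 2 and Agt Tg replicate 3, r was −0.998 over the remaining 4 libraries, so that the positive relation rested on those 2 libraries. For miR-451a and miR-144-5p r was 0.13 (exact permutation p = 0.819, adjusted 0.819) and rho −0.029 (exact permutation p = 1, adjusted 1). For miR-451a and miR-144-3p r was 0.29 (exact permutation p = 0.610, adjusted 0.762). The library with the most miR-144, Agt Tg replicate 3, had the second lowest miR-451a.

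**Figure D4:**
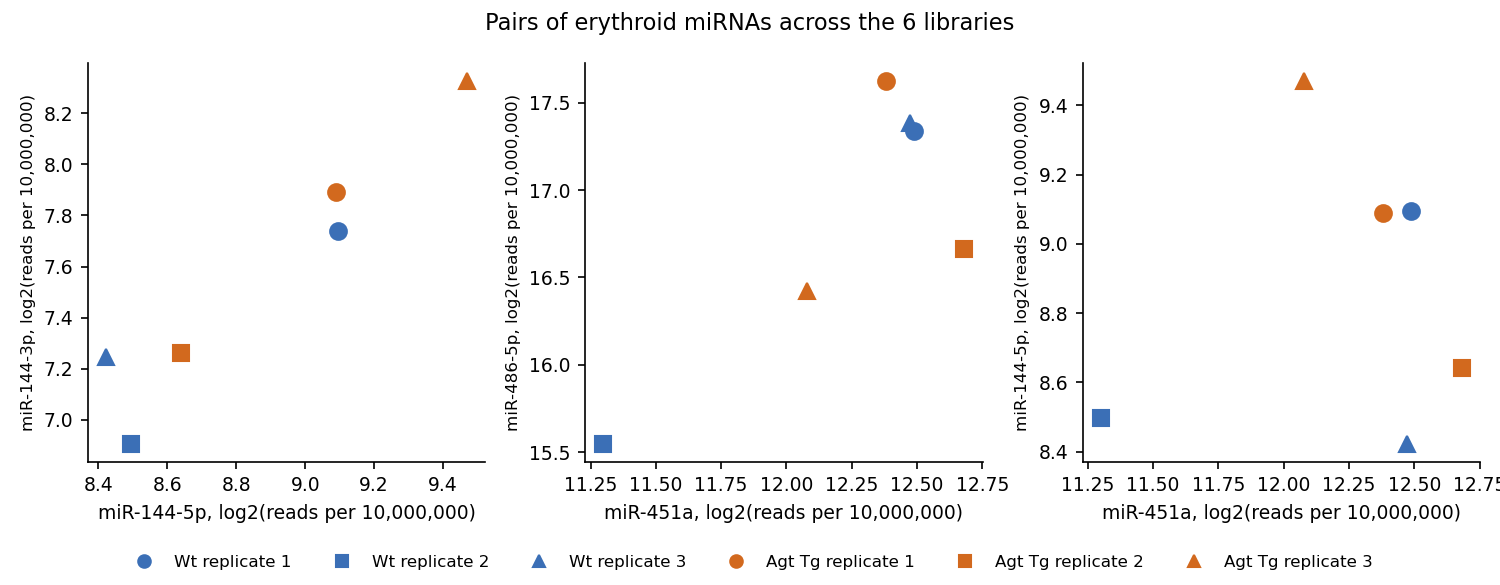
The plots set pairs of erythroid miRNAs against each other as log2(reads per 10,000,000), 1 point per mouse. The arms of miR-144 lie along a line (r = 0.96), Wt replicate 2 is the lowest point of both miR-451a and miR-486-5p (r = 0.81), and miR-451a and miR-144-5p scatter (r = 0.13).

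Rows of other lists were set beside the erythroid ones. Of all 329 rows, 32.5% had a positive fold change, so that most were lower in Agt Tg mice, and 9.12% had a p of at most 0.05 by limma. The list of miRNAs that are abundant in red cells but also made by many tissues (9 rows, 9 tested, such as miR-16-5p, miR-92a-3p and miR-22-3p) had 1 higher and 8 lower in Agt Tg mice. Its median log2 fold change was −0.22, close to the −0.19 of all rows, and 0 of 9 had a p of at most 0.05 by limma. Leukocyte miRNAs (8 rows, 6 tested) were lower in Agt Tg mice in 6 of 6, with a median of −0.58, and 0 of 6 had a p of at most 0.05 by limma. The values ran from −0.95 for miR-142-3p (standard error 0.43) to −0.26 for miR-150-5p (0.15). Both endothelial rows, miR-126-3p and miR-126-5p, had positive values of 0.12 and 0.33 (standard errors 0.21 and 0.21), and 0 of 2 had a p of at most 0.05. Without Wt replicate 2 the median was −0.24 for the list shared by red cells and other tissues, −0.64 for the leukocyte and 0.16 for the endothelial list, compared with −0.054 for the erythroid rows. For the muscle, epithelial and adipose lists the median was −0.41, −2.39 and 0.061 with that library and −0.24, −0.18 and −0.10 without it. The muscle median rests on 2 tested rows, of which miR-499a-5p was above the floor in 3 libraries. By limma a p of at most 0.05 was reached by 0 of 2 muscle, 1 of 7 epithelial (miR-205-5p, log2 fold change −2.17) and 0 of 8 adipose rows tested. Whether the erythroid rows differed from these lists was not tested.

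Since miR-486 is also made in muscle, the list of muscle miRNAs was set beside it. Of 7 muscle rows 4 were at the floor in all libraries, including miR-206 and miR-133b, and miR-1 was above it in 1 library. miR-133a was at 9.14, 10.72 and 9.18 in Wt replicates 1, 2 and 3 and at 9.24, 8.92 and 9.35 in Agt Tg replicates 1, 2 and 3 (log2). It was thus above the floor in 6 of 6 libraries and highest in Wt replicate 2, the library with the least miR-486-5p. The summed level of the muscle list was between 496 and 651 reads per 10000000 in Agt Tg and between 581 and 1699 in Wt mice, and that of miR-486-5p between 87736 and 201826 in Agt Tg and between 47937 and 170943 in Wt mice. The part of muscle in the level of miR-486 was not tested.

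**Figure D5:**
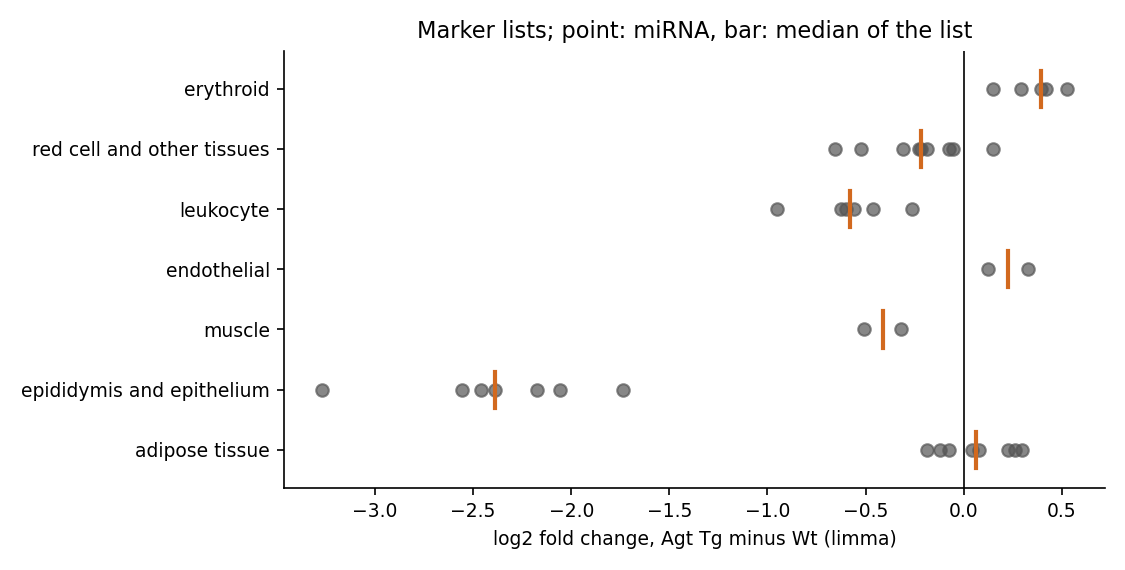
The plot gives the log2 fold change of Agt Tg against Wt (limma) of each tested miRNA of 7 lists, with the median of each list as a bar. The 5 erythroid points lie between 0.15 and 0.53 and the 6 leukocyte points between −0.95 and −0.26, and the epithelial points, down to −3.27, carry the high values of Wt replicate 2.

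Rows next to the erythroid genes in sequence or position were looked up as well. miR-451b, from the strand opposite to miR-451a, was at the floor in 6 of 6 libraries. The same held for both arms of miR-4732, which in the human genome lies beside miR-144 and miR-451a. A mouse locus of miR-4732 was not looked up. The rows of miR-451b and miR-4732 carry human names, and whether mouse reads of such loci would be counted in them was not tested. miR-101-3p was at 12.12 ± 0.56 (SD, n = 3) in Wt tissue and 12.09 ± 0.42 (SD, n = 3) for Agt Tg mice, and its log2 fold change was −0.02 (limma adjusted p = 0.965, standard error 0.35). It was thus far above miR-144-3p, with which it shares bases 2 to 7, at 7.30 ± 0.42 (SD, n = 3) in Wt tissue and 7.83 ± 0.54 (SD, n = 3) for Agt Tg mice.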

How the data were processed

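Small RNA libraries of epididymal WAT from 3 Wt and 3 Agt Tg mice were analysed, 1 per mouse, with genotype and replicate from the labels. The authors used miRBase as the mapping reference, counted mature arms and deposited log2 values in 1 table under human miRNA names (genome build mm10 in the submitters' processing notes); which miRBase release and how many mismatches were used is not given in the sources used here. That the log2 values are of reads per 10000000, floored at 10, was worked out from them: 1924 of 1924 values above the floor gave whole reads within 0.02. The floor stood for 6.39 to 10.6 reads, and 0 columns were left without a sample. No 2 libraries agreed within sampling noise.

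Every row that exceeded the floor in 3 or more libraries was tested with limma 3.58.1 (R 4.3.3) with a mean-variance trend and no term but genotype, and the fit was tried on simulated data. The limma p-values set the genotype difference against the spread between mice, moderated over all rows tested. With 1 library per mouse, that spread cannot be told from the spread between library preparations. Ratios were compared by exact permutation with Python 3.11.15, and figures used matplotlib 3.10.9. Named were all arms of the 3 miRNAs, the rows most like each over 6 libraries by Pearson's r, neighbours in sequence or position, and lists of red cell, leukocyte, endothelial, muscle, epithelial and adipose miRNAs; where the table gives no arm (miR-1, miR-133a, miR-208a, miR-208b and miR-210) that row was taken. Members and lists were chosen with earlier results of these data known. miR-23a-3p was named for its ratio with miR-451a in plasma work, and miR-191-5p as the reference miRNA of the study. Any other miRNA named was chosen after its values were seen. Alternatives were TMM scaling, scaling to miR-191-5p, log2(RPM + 1), where RPM is reads scaled to library totals, limma-voom with TMM, other filters, the replicate number as a block, and leaving out each library; the values of each member without Wt replicate 2 were picked out after the data were seen.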

Additional observations from a re-analysis of the deposited data

How the results depend on the processing

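The count of erythroid rows at the threshold was 0 under each of the 13 alternatives run, and the adjusted p of the members by limma stayed between 0.496 and 0.964. Their log2 fold changes kept their sign in 61 of 65 alternatives. The exceptions were miR-451a (−0.10), miR-486-5p (−0.46) and miR-486-3p (−0.054) without Wt replicate 2, and miR-486-5p without Agt Tg replicate 1 (−0.21). With each library left out the fold changes ran from −0.10 to 0.49 for miR-451a, −0.46 to 0.46 for miR-486-5p, −0.054 to 0.80 for miR-486-3p, 0.19 to 0.61 for miR-144-5p and 0.28 to 0.81 for miR-144-3p. Over all rows the count at the threshold was 16, compared with 7 on log2(RPM + 1), 9 for the 270 rows that exceeded the floor in every library, and 12 to 35 with each library left out, 35 without Agt Tg replicate 1. Of the 16, 9 were higher in Agt Tg mice, compared with 10 of 15 under TMM scaling, 10 of 14 with limma-voom, 3 of 9 under the filter on every library and 10 of 35 without Agt Tg replicate 1. The cause was not tested.

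Genotype differences of the log2 ratios with each library left out ran from −0.51 to 0.12 for miR-486-5p over miR-451a, −0.47 to 0.25 for miR-451a over miR-144-5p, −0.76 to 0.19 for miR-486-5p over miR-144-5p, −0.40 to −0.05 for the miR-486 arms, −0.23 to −0.02 for the miR-144 arms and 0.03 to 0.40 for miR-451a over miR-23a-3p. The first changed sign without Agt Tg replicate 2 (0.12), the second without Wt replicate 3 (0.22) or Agt Tg replicate 3 (0.25), and the third without Wt replicate 3 (0.19) or Agt Tg replicate 3 (0.19).

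The replicate numbers gave no sign of pairing the mice: deviations of same-numbered libraries from their group means correlated at 0.22, −0.18 and −0.21 across rows. Differently numbered libraries ran from −0.30 to 0.28. With 3 mice a group this check cannot exclude a pairing. With the replicate block the count at the threshold was 17, with 0 erythroid rows, the fold change of miR-451a stayed at 0.29 (limma adjusted p = 0.781), and that of miR-144-3p at 0.53 (limma adjusted p = 0.608). Rows at the floor in all libraries have no variance and could not be fitted, so that without a filter 373 rows were tested. miR-486-3p and miR-144-3p rest on 41 to 199 and 94 to 339 reads a library, so that counting error adds to the spread of their values. The standard error of the log2 fold change was nevertheless widest for miR-486-5p (0.55), which had 37577 to 209241 reads.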

Other observations

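The rows most like each erythroid miRNA were ranked by Pearson's r over the 6 libraries among the 270 rows above the floor in all of them, as a description with no test. The row most like miR-451a was miR-668 (r = 0.99), followed by miR-365b-3p and miR-365a-3p (0.92 each, with identical values), miR-23a-3p (0.92) and miR-151a-5p (0.91). miR-486-5p came in place 15 of that order and miR-144-5p in place 118. Closest to miR-486-5p were miR-99b-5p (0.95), miR-24-3p (0.94), miR-191-5p (0.93), the reference of the RT-qPCR assays in the study, miR-1249 (0.92) and miR-328 (0.91), with its own other arm in place 6. All these rows share the library totals, and Wt replicate 2 is 1 of the 6 points behind each r.

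For both arms of miR-144 the other arm was in place 1. miR-148a-3p (r = 0.90 with miR-144-5p and 0.83 with miR-144-3p) and miR-27a-3p (0.83 and 0.85) were among the 5 closest rows of each. Also among them were miR-450a-5p (0.87) and the endothelial miR-126-5p (0.83) for miR-144-5p, and miR-4634 (0.87) and miR-940 (0.82) for miR-144-3p. For miR-486-3p the first row was miR-615-5p (0.96), with miR-486-5p second (0.91), then miR-15b-3p (0.87), miR-148a-5p (0.85) and miR-132-5p (0.84). miR-451a was not among the 5 rows closest to either arm of miR-144, in place 78 for miR-144-5p and place 54 for miR-144-3p.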
